A study of Drosophila melanogaster with 8 samples.

Results

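The genes described here are 10 Drosophila melanogaster genes of the secreted serine protease family: Send1, Send2, CG17234, CG17239, CG31681, CG32277, CG32834, CG9897, CG32833 and CG13318. They were found by gene symbol in the array's probe annotation, which gave 1 probe set for each gene, 10 of the 18769 probe sets that are not controls. RNA was measured on Affymetrix arrays in 4 groups of 2 arrays each, an original and a duplicate. The groups were spermathecae of Hr39(04443) females, spermathecae of wild-type females, the lower reproductive tract without spermathecae of Hr39(04443) females, and the same lower tract of wild-type females. All flies were mated adult females 4 days old. Hr39 encodes a nuclear receptor of the SF-1 group, and the study asked what it does in building and running the female tract. The labels do not name the wild-type strain, how the Hr39(04443) allele changes the gene, or how many animals went into a sample. Nor do they say that the 2 arrays of a group came from separate animals, so a p-value here sets a difference against the spread among these arrays, and that spread may be technical.

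The spermathecae are paired sperm storage organs of the female fly. Each has a hard capsule surrounded by large secretory cells, which release proteins through fine ducts into the lumen where sperm are stored. Secreted serine proteases of the trypsin fold are made as inactive precursors and cut protein chains with a catalytic triad of histidine, aspartate and serine. Serine protease homologs share the fold but lack one or more of the triad residues, and several are known as cofactors or regulators rather than as cutting enzymes. Send1 and Send2, named as spermathecal endopeptidases, are known from the spermathecal secretory cells, and their regulatory sequences are used to drive transgenes there.

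The gene synonyms in RefSeq place 5 of the 10 genes among the serine proteases: Send1 (SP163), CG17234 (SP113), CG17239 (SP138), CG31681 (SP230) and CG32277 (SP183). Another 4 are listed as homologs: CG32834 (SPH196b), CG32833 (SPH196a), CG9897 (SPH195) and CG13318 (c-SPH101). Send2 carries both kinds of synonym, SP190 and SPH190. In the RefSeq gene order, CG17239, CG17234 and Send1 followed each other on chromosome arm 2L, with CG31681 9 genes beyond Send1 and Send2 elsewhere on the same arm. CG32834 and CG32833 were neighbours on 2R and their annotated spans overlapped, and CG9897 lay 4 genes beyond CG32833. CG32277 was on 3L and CG13318 on 3R. Whether any probe lies in a stretch shared by overlapping genes was not tested.

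The 8 arrays had similar median signals. The medians lay between 17.7 and 20.02 in mutant spermathecae, 18.5 and 18.9 in wild-type spermathecae, 20.7 and 22.3 in the mutant lower tract, and 20.5 and 22.5 in the wild-type lower tract. The brightest spike-in control was less even. It read 17453 and 22196 in mutant spermathecae and 24226.5 and 17429 in wild-type spermathecae. In the lower tract it read 12710 and 10778 in the mutant, against 11546 and 12858 in wild type. Small differences between organs may therefore hold an offset between arrays, which was not tested. The 4 Hr39 probe sets checked the genotype label only in part. One of them read 477 and 452 in mutant spermathecae, against 821 and 725 in wild-type spermathecae. This probe set fell by 0.73 on the log2 scale (limma, adjusted p = 0.0351), and the other 3 did not pass the test in spermathecae (smallest adjusted p = 0.0889) or, like the first, in the lower tract. Muscle markers stood apart between the organs: the summed signal of 4 muscle probe sets was 979 to 1078 in mutant spermathecae and 840 to 1017 in wild-type spermathecae, against 19909 to 22124 in the mutant lower tract and 18752 to 21890 in the wild-type lower tract.

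Of the 10 genes, 8 had signals above 10000 on every spermatheca array, in mutant and wild type alike, and far lower signals in the rest of the tract. Signals are the authors' linear MAS5 intensities. The 5 annotated proteases all belonged to these 8. Send1 read 13764 and 18423 in mutant spermathecae, against 18915 and 13277 in wild-type spermathecae. Its signals in the rest of the tract were 2194.5 and 531 in the mutant, against 785 and 181 in wild type. The lowest spermatheca array was thus above the highest lower tract array, while the genotypes overlapped within each organ.

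CG17239, the neighbour of CG17234 on 2L, read 15176 and 20469 in mutant spermathecae, against 22890 and 15560 in wild-type spermathecae. The lower tract signals were 1361 and 177 in the mutant and 558 and 38.8 in wild type. Replicate 1 was the higher array in both genotypes of the lower tract. CG17234, which lies between CG17239 and Send1, read 12152 and 14916 in mutant spermathecae, against 15068 and 12208 in wild-type spermathecae. Lower tract arrays gave 105 and 46.9 in the mutant, against 118 and 11.8 in wild type. Here the highest lower tract array was wild-type replicate 1.

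CG31681, the fourth protease of the 2L group, had signals of 12855 and 18307 in mutant spermathecae, against 19268 and 13350 in wild-type spermathecae. Signals of 2157 and 513 in the mutant lower tract stood against 502 and 36.1 in wild type. Its 2 mutant lower tract arrays both lay above the 2 wild-type ones, with 513 against 502 where they came nearest. CG32277, the protease on 3L, read 14233 and 19622 in mutant spermathecae, against 19120 and 14376 in wild-type spermathecae. Mutant lower tracts gave 260 and 34.1, against 62.5 and 3.25 in wild-type ones. The mutant and wild-type ranges overlapped in both organs.

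Send2 had signals of 13051 and 16463 in mutant spermathecae, against 18272 and 12139 in wild-type spermathecae. Its lower tract signals were 89.6 and 49.8 in the mutant, against 138 and 13.4 in wild type. Both mutant lower tract values thus fell between the 2 wild-type ones. The homolog CG32834 read 15083 and 20139 in mutant spermathecae, against 19734 and 14552 in wild-type spermathecae. Its mutant lower tract arrays read 658 and 66.0, against 148 and 2.40 on the wild-type ones. Among the 8, it had the widest spread over the lower tract arrays, with a highest signal 274 times the lowest.

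The homolog CG9897 read 12988 and 17920 in mutant spermathecae, against 16926 and 13169 in wild-type spermathecae. Outside the spermathecae it read 1027 and 177 in the mutant, against 222 and 12.2 in wild type. The genotypes overlapped in both organs.

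The remaining 2 homologs had other patterns. CG32833, the overlapping neighbour of CG32834, read 146 and 147 in mutant spermathecae, against 25.0 and 43.9 in wild-type spermathecae. Its lower tract signals, 18.0 and 10.8 in the mutant and 14.4 and 19.3 in wild type, lay below the array median on all 4 arrays. The gene was thus well above the array median in mutant spermathecae, above it by less in wild-type spermathecae and below it in the lower tract. CG13318 was the only gene of the 10 with more signal in the lower tract: it read 822 and 832 in mutant spermathecae and 1507 and 1448 in wild-type spermathecae. Its lower tract signals were 3044 and 1987 in the mutant, against 2674 and 2249 in wild type.

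**Figure D1:**
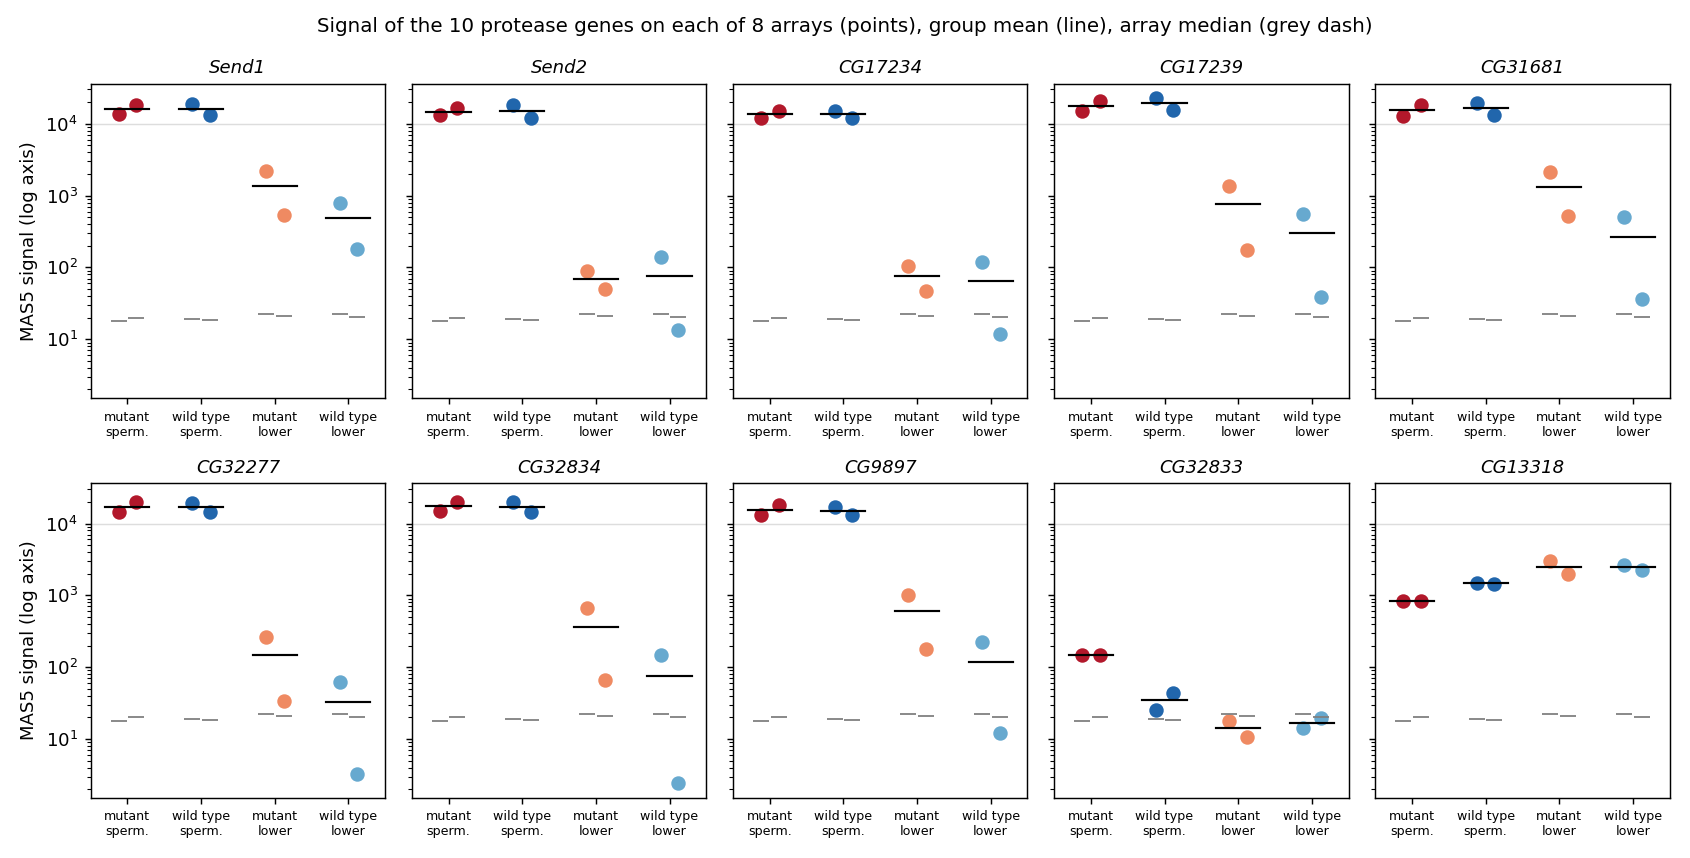
MAS5 signal (log axis) of each of the 10 genes, 1 panel a gene, with a point for each of the 8 arrays, a line at each group's mean of 2 arrays and a grey dash at each array's median. In 8 panels every spermatheca point lies above 10000 and the lower tract points are spread out below, while CG32833 is highest in mutant spermathecae and CG13318 in the lower tract.

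The 8 genes with signals above 10000 lay near the top of what these arrays report. Against the brightest spike-in control of the same array, they stood at 67.2 to 92.2% in mutant spermathecae and at 62.2 to 94.5% in wild-type spermathecae. Signals so close to the top can understate differences, and no order among these genes is read from them. In mutant spermathecae replicate 2 exceeded replicate 1 by 1.23 to 1.42 times for these 8 genes and by 1.27 times for the control. In wild-type spermathecae replicate 1 exceeded replicate 2 by 1.23 to 1.51 times, against 1.39 times for the control. The spread of these genes between spermatheca replicates was thus close to that of the control.

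The first comparison asked whether the 10 genes differ between mutant and wild-type spermathecae. It was made with limma on log2(signal + 4), with p-values adjusted by the Benjamini-Hochberg method over 10113 probe sets. These were the probe sets whose signal reached its array's median on both arrays of 1 group or more, and all 10 genes were among them. CG32833 rose and CG13318 fell in the mutant, and the 8 genes with signals above 10000 did not pass the test. Over all tested probe sets, 7.93% passed at an adjusted p under 0.05, 4.04% higher and 3.89% lower in the mutant. In whole organs, fewer cells of a type and less RNA per cell cannot be told apart.

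CG32833 was 4.03-fold higher in mutant than in wild-type spermathecae (log2 difference 2.01, SE 0.36, n = 2 arrays each, adjusted p = 0.00822 by limma), and both mutant arrays exceeded both wild-type ones. CG13318 fell by 0.83 on the log2 scale (SE 0.20, adjusted p = 0.0311 by limma), to 0.561 of the wild-type level, again with no overlap. Neither call stood without every array. The CG32833 call was lost without mutant spermathecae replicate 1 (adjusted p = 0.0676), mutant spermathecae replicate 2 (0.0778) or wild-type spermathecae replicate 1 (0.0522), with log2 differences that stayed positive. The CG13318 call was lost without any 1 of the 4 spermatheca arrays (adjusted p = 0.0571 to 0.16), with log2 differences of -0.86 to -0.81. It was also lost with no filter (adjusted p = 0.0571) or with no variance trend (0.0993).

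For the 8 genes with signals above 10000, the log2 differences between mutant and wild-type spermathecae lay between -0.10 (CG17239) and 0.04 (CG32834). None had an unadjusted p under 0.05, and the smallest adjusted p by limma was 0.973. The SE of these differences was 0.69 to 1.28, because all groups shared 1 estimate of the spread and the lower tract arrays of these genes disagreed. A fit of the 4 spermatheca arrays alone gave an SE of 0.22 to 0.27. The 95% intervals from that fit reached at most from 0.607-fold to 1.54-fold, on signals that, this near the top of the scale, can understate a larger difference. Of the 46 other probe sets above 10000 on all 4 spermatheca arrays, 0 passed the limma test between mutant and wild-type spermathecae, and 0 had an unadjusted p under 0.05. Both sets were grouped by signals above 10000 in both genotypes, which by itself leaves little room for a difference. The absence of calls among them is therefore not read as a result.

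**Figure D2:**
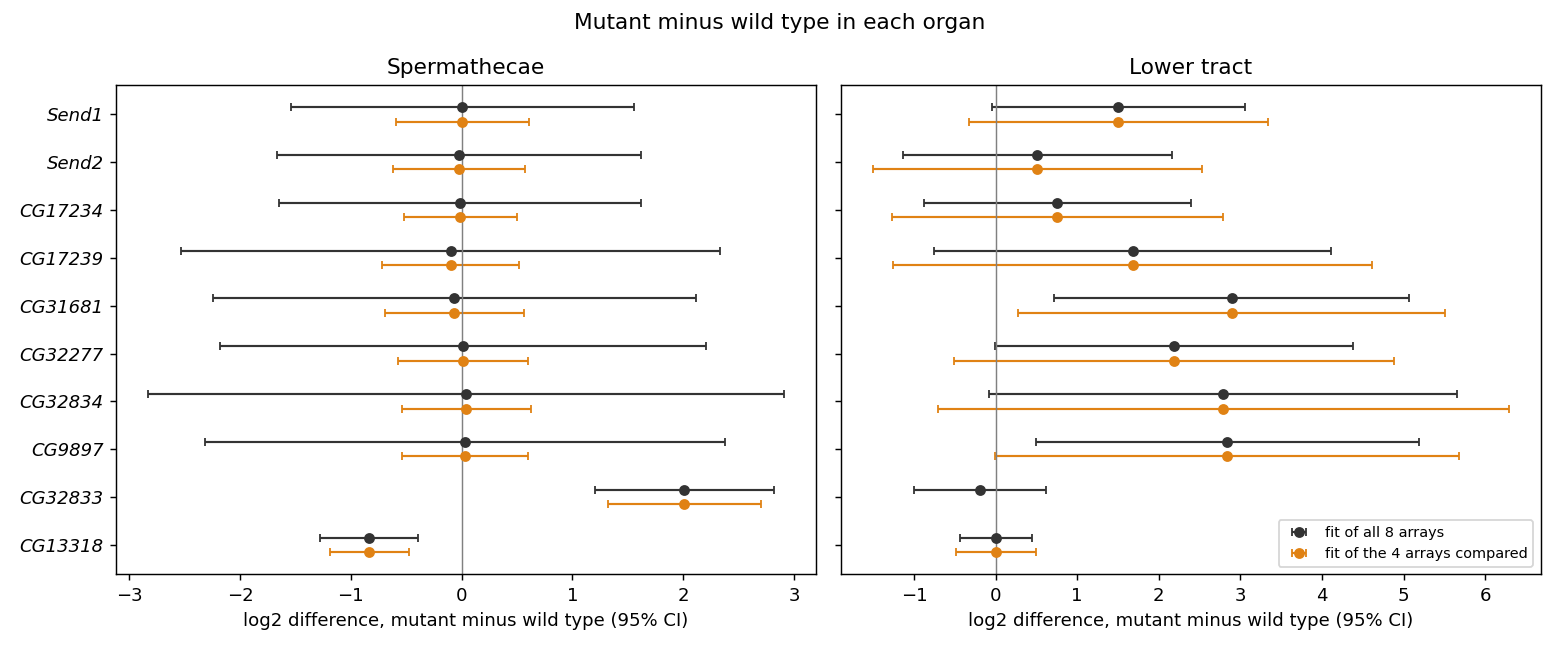
Log2 difference, mutant minus wild type, with its 95% confidence interval for each of the 10 genes, in spermathecae (left) and in the lower tract (right), from the fit of all 8 arrays (dark) and from the fit of the 4 arrays compared (orange). In spermathecae CG32833 lies to the right of 0 and CG13318 to the left, while the 8 other genes centre on 0 with wide intervals in the 8-array fit. In the lower tract those 8 lie between 0.51 and 2.89 with wide intervals.

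In the lower tract the question was the same: do the genes differ between mutant and wild-type females? None of the 10 passed the limma test, with 5.8% of all tested probe sets called, 2.47% higher and 3.33% lower in the mutant. The 8 genes that were bright in spermathecae had positive log2 differences of 0.51 (Send2) to 2.89 (CG31681), with SEs of 0.69 to 1.28. The smallest adjusted p-values were those of CG31681 (log2 difference 2.89, SE 0.97, adjusted p = 0.144 by limma) and CG9897 (2.84, SE 1.05, adjusted p = 0.186 by limma). The array means of CG32833 and CG13318 differed by -0.20 and 0.004 on the log2 scale in the same comparison (adjusted p = 0.867 and 0.996 by limma).

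Replicates of these 8 genes differed strongly in the lower tract. For all 8 genes replicate 1 was the brighter array in both genotypes, by 1.80 to 9.97 times in the mutant and by 4.34 to 61.6 times in wild type. For Send1, CG17239, CG32277, CG32834 and CG9897, the arrays followed the same order from high to low: mutant replicate 1, wild-type replicate 1, mutant replicate 2, wild-type replicate 2. The within-group SD of log2 signal of these 8 genes was 0.57 to 2.29 in the mutant lower tract and 1.48 to 3.23 in the wild-type lower tract. The median SD over all tested probe sets was 0.14 in the mutant lower tract and 0.18 in the wild-type lower tract. The size of the genotype differences depended on which wild-type lower tract array was used. Without wild-type lower tract replicate 1, the log2 differences of the 8 genes lay between 2.02 and 5.07. Without wild-type replicate 2, the differences of the 8 genes lay between -0.997 and 1.06.

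Some other genes with high spermatheca signal had the same uneven lower tract signal. Of the 46 other probe sets above 10000 on all 4 spermatheca arrays, 2 were at least 4 times brighter on wild-type lower tract replicate 1 than on replicate 2, CG43074 and CG43090, against 8 of the 8 protease probe sets. Most of the 46 were not strongly biased to spermathecae: in wild type, 3 had a log2 difference between organs above 5, CG43074, CG43090 and CG42807, and 2 of these 3 showed the uneven signal. CG42807 read 486 and 489 in the mutant lower tract and 267 and 309 in the wild-type lower tract. For the other 44 the ratio of replicate 1 to replicate 2 was 0.824 to 2.02 in the mutant and 0.735 to 1.27 in wild type. Markers of spermathecae that are no proteases differed among themselves. CAH8, a carbonic anhydrase, read 5441 and 6268 in mutant spermathecae and 2740 and 5729 in wild-type spermathecae. Its lower tract signals were 2.57 and 2.08 in the mutant and 3.04 and 3.25 in wild type. CAH8 was thus near 0 on all 4 lower tract arrays. One CG42284 probe set read 35.7 and 10.6 in the mutant lower tract, against 23.2 and 1.27 in the wild-type lower tract, the same order of arrays as Send1. Cyp305a1, a cytochrome P450 gene, read 29.3 and 11.4 in the mutant lower tract, against 9.79 and 4.96 in the wild-type lower tract. It was thus also higher on replicate 1 of both genotypes. The other probe sets of this list were not higher on replicate 1 of wild type. There the ratio of replicate 1 to replicate 2 was 0.937 for CAH8, 0.946 for CG30271 and 0.302 for CG34288. It was 0.86 for Obp83cd and 0.656 for the second CG42284 probe set. In the mutant these ratios were, in the same order, 1.23, 1.10, 1.39, 0.699 and 0.547.

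The summed signal of all 7 probe sets of 6 spermatheca-high genes that are no proteases was 382 and 463 in the mutant lower tract, against 67.1 and 55.1 in the wild-type lower tract. Obp83cd, an odorant-binding protein gene, made up 291 and 416 of the mutant sums, against 18.3 and 21.2 of the wild-type ones. Without Obp83cd the sums were 91.0 and 47.2 in the mutant, against 48.9 and 33.9 in wild type. The sums with Obp83cd had another order of arrays than the proteases, and the sums without it had the order of Send1, CG17239, CG32277, CG32834 and CG9897. Germline markers also differed between the wild-type lower tract arrays. The sum of 9 germline probe sets was 83.3 and 326 in the mutant lower tract, against 2913 on replicate 1 and 228 on replicate 2 of wild type. The array with the most germline signal was therefore not the one with the most protease signal in 6 of the 8 genes. The part of either tissue in the protease signals was not tested.

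**Figure D3:**
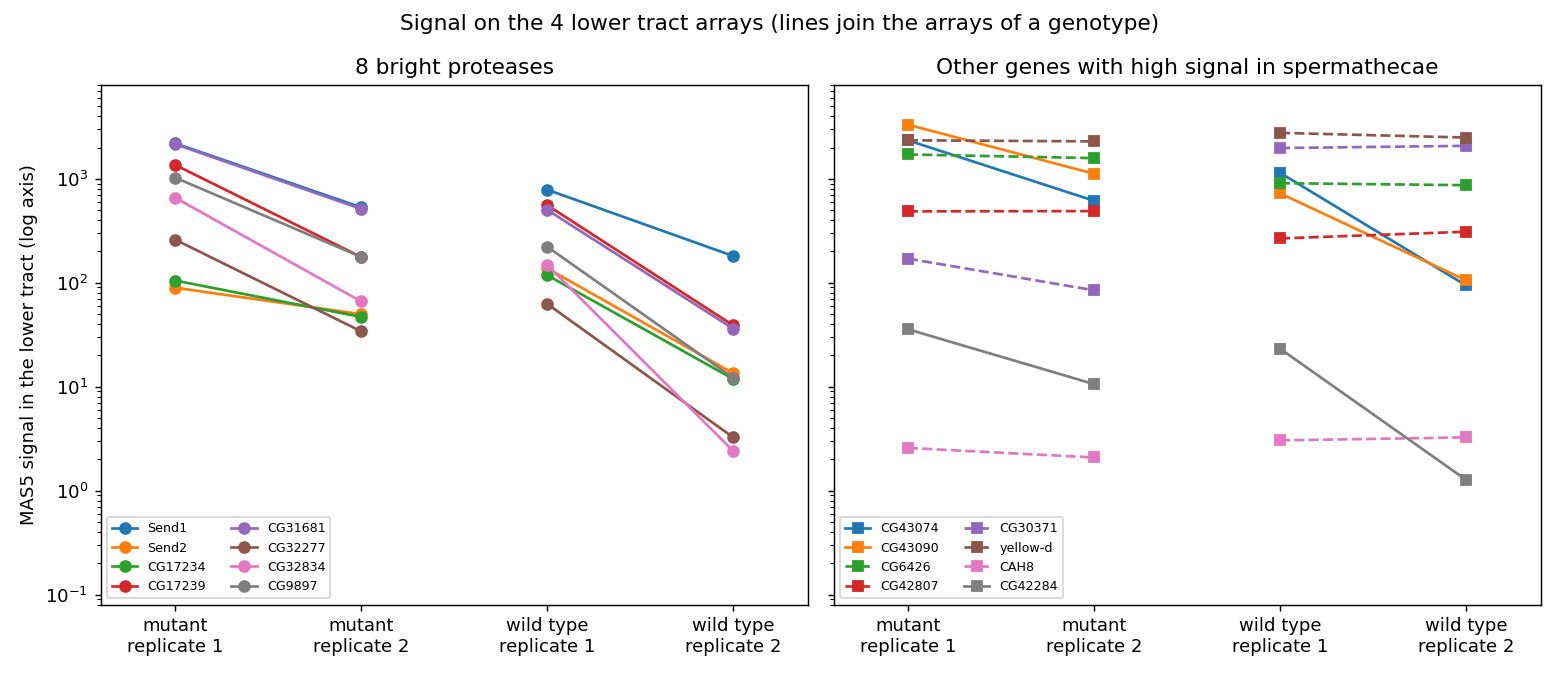
MAS5 signal (log axis) on the 4 lower tract arrays, mutant left of wild type, for the 8 proteases that are bright in spermathecae (left) and for 8 other genes with high signal in spermathecae (right). Lines join the 2 arrays of a genotype. Each of the 8 proteases is lower on replicate 2 of both genotypes, as are CG43074, CG43090 and the CG42284 probe set shown. CAH8 lies near 3 on every array and CG30371 is low in the mutant only. The second CG42284 probe set, higher on replicate 2 of both genotypes, is not shown.

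The organs were compared next, as spermathecae against the lower tract within each genotype. The 10 genes had been proposed as spermathecal, so the direction is a description of how strongly they are enriched. In wild type 8 of the 10 rose in spermathecae and CG13318 fell. CG32833 had a fitted log2 difference of 0.85 (SE 0.36), or 1.01 under quantile normalization and 1.02 under median centring. It met the filter only through the spermathecae, where it was higher, so its test is not read. Over all tested probe sets 43.7% passed in wild type, 22.2% higher and 21.5% lower in spermathecae. The log2 differences of the 8 reached from 5.38 for Send1 (SE 0.69, adjusted p = 0.000161 by limma) to 9.56 for CG32277 (SE 0.98, adjusted p = 3.44e-05 by limma). In wild-type lower tract, 5 of the 8 were below the array median on at least 1 array, and their spermatheca signals were near the top of the scale, so these sizes are fitted values and not exact folds. The median over the 10 genes was 7.44, against 0.07 over all tested probe sets.

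These folds rest on lower tract arrays that disagree. Without wild-type lower tract replicate 1 the log2 differences of the 8 genes in wild type lay between 6.42 and 11.4, and without replicate 2 between 4.33 and 7.96. All 8 passed the test either way. CG13318 fell by 0.73 on the log2 scale in wild-type spermathecae against the lower tract (SE 0.20, adjusted p = 0.0137 by limma), a call lost without wild-type lower tract replicate 1 (adjusted p = 0.0807).

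In the mutant the 8 bright genes rose in spermathecae and CG13318 fell, where 46.2% of all tested probe sets passed, 24.7% higher and 21.5% lower. The 8 bright genes rose by 3.86 (CG31681, SE 0.97, adjusted p = 0.00892 by limma) to 7.69 (Send2, SE 0.74, adjusted p = 1.94e-05 by limma) on the log2 scale. CG32833 had a fitted log2 difference of 3.05, but its lower tract signals lay below the array median and it met the filter only through the spermathecae, where it was higher, so neither an exact fold nor the test is read from it. CG13318 fell by 1.57 (SE 0.20, adjusted p = 0.000129 by limma), to 0.337 of its lower tract level. The median over the 10 genes was 5.15, against 0.14 over all tested probe sets. Without mutant lower tract replicate 1 the 8 bright genes differed by 4.89 to 8.78, and without replicate 2 by 2.83 to 7.29. CG31681 no longer passed once mutant lower tract replicate 2 (adjusted p = 0.0845 by limma) or mutant spermathecae replicate 2 (0.0586) was left out. Under a robust variance, 4 of the 8 missed the threshold: CG17239 (adjusted p = 0.0577), CG31681 (0.0906), CG32834 (0.0513) and CG9897 (0.0521).

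Whether the mutant's difference from wild type was itself different in the 2 organs was tested as an interaction. None of the 10 genes passed, where 3.05% of all tested probe sets did, 1.76% with a positive and 1.29% with a negative interaction. CG32833 had a fitted interaction of 2.21 on the log2 scale (SE 0.51), its mutant difference being 2.01 in spermathecae and -0.20 in the lower tract. Its lower tract signals lay below the array median and it met the filter only through the spermathecae, so the test of its interaction is not read. Without wild-type spermathecae replicate 2 the fitted interaction was 2.57. CG13318 had an interaction of -0.84 (SE 0.28, adjusted p = 0.183 by limma). The 8 bright genes ranged from -2.96 (CG31681) to -0.54 (Send2), with SEs of 0.98 to 1.81 and a smallest adjusted p of 0.378 by limma. CG31681 passed without wild-type lower tract replicate 1 (log2 interaction -4.78, adjusted p = 0.0282 by limma).

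Over the 8 arrays the 8 bright genes followed one another. Pearson's r between each gene's log2 signal and the mean of the 10 was 0.983 to 0.999 for them, 0.741 for CG32833 and -0.758 for CG13318. The arrays fall into 2 organs, so r mainly reflects that split and is given as a description. Of 8552 other probe sets with 1 gene symbol, the 5 most like this mean were those of CG43074 (r = 0.992), CG14543 (0.991), CG42284 (0.989), CG4045 (0.985) and CG3760 (0.983). CG43074 read 16423 and 19697 in mutant spermathecae, against 19667 and 15902 in wild-type spermathecae. Its lower tract signals were 2344 and 615 in the mutant, against 1142 and 94.1 in wild type. It thus followed the same order of lower tract arrays as Send1 and CG17239.

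Neighbouring genes of the family did not share the high spermatheca signals. Ser12, a serine protease gene directly before CG17239 on 2L, read between 5.59 and 19.4 on all 8 arrays and did not reach the filter. CG4271, a serine protease homolog whose span overlaps that of CG31681, read 61.0 and 103 in mutant spermathecae, against 19.2 and 31.8 in wild-type spermathecae. It rose by 1.53 in mutant spermathecae (SE 0.37, adjusted p = 0.0351 by limma), a gene of low signal beside a bright one that did not pass, as with CG32833 beside CG32834. On 3L, CG33159 next to CG32277 read 70.4 and 66.2 in mutant spermathecae, against 27.5 and 54.8 in wild-type spermathecae. Its lower tract signals were 1.53 and 0.599 in the mutant, against 2.01 and 2.09 in wild type. CG33159 was thus also higher in spermathecae, at a low signal. CG33160 on the other side of CG32277 did not reach the filter, with signals from 2.59 to 16.1.

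In the wider family more probe sets fell than rose in spermathecae. RefSeq synonyms list 251 further SP or SPH genes, of which 223 were on the array and 81, with 84 probe sets, were tested. In wild type 16 of the 84 rose (19%) and 33 fell (39.3%) in spermathecae against the lower tract. Over all tested probe sets 22.2% rose and 21.5% fell. The median log2 difference was -0.41, against 0.07 over all tested probe sets. In the mutant 16 rose (19%) and 29 fell (34.5%), against 24.7% and 21.5% over all tested probe sets. Between mutant and wild-type spermathecae 6 of the 84 rose (7.14%) and 5 fell (5.95%), against 4.04% and 3.89% over all tested probe sets. Among the 6, CG30083 and 1 teq probe set met the filter only through mutant spermathecae, where they were higher. Among the 5, alphaTry met it only through wild-type spermathecae. These calls are not read. Between mutant and wild-type lower tract 4 rose (4.76%) and 4 fell (4.76%), against 2.47% and 3.33%. The interaction was positive for 4 (4.76%) and negative for 2 (2.38%), against 1.76% and 1.29% over all tested probe sets. CG14642, CG30371 and CG30375 were among the family members that differed between genotypes in 1 organ or both.

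A shorter list of named secreted serine proteases, mainly of immunity, development and digestion, held 31 genes, of which 12 were tested with 13 probe sets. In spermathecae against the lower tract 1 of the 13 rose (7.69%) and 10 fell (76.9%) in wild type. In the mutant 1 rose (7.69%) and 9 fell (69.2%). Over all tested probe sets 22.2% rose and 21.5% fell in wild type, and 24.7% and 21.5% in the mutant. Those that fell in wild-type spermathecae included grass, a protease of Toll signalling in immunity (log2 difference -2.95), psh or persephone of the same pathway (-2.57), and ea or easter, which cuts the Toll ligand in the embryo (-1.38). In mutant spermathecae 3 fell (23.1%) and 1 rose (7.69%) against wild type, where 3.89% and 4.04% did over all tested probe sets. Of the 13, alphaTry met the filter only through wild-type spermathecae and 1 teq probe set only through mutant spermathecae, each where it was higher. Their calls are part of these counts and are not read. ea read 110 and 93.8 in mutant spermathecae, against 303 and 299 in wild-type spermathecae, and fell by 1.53 on the log2 scale (adjusted p = 0.000441 by limma). teq, or tequila, which encodes a neurotrypsin-like protease, had 2 probe sets with fitted log2 differences of -3.82 and 1.88 in this comparison. The second is the one whose test is not read. In the lower tract 1 fell in the mutant (7.69%, against 3.33% over all tested probe sets), the teq probe set that also fell in spermathecae. It read 10.1 and 5.95 in the mutant, against 477 and 462 in wild type. Its log2 difference was -5.32 (adjusted p = 4.38e-05 by limma).

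The gut digestive proteases gave little signal. Of 26 such genes 21 were on the array with 1 probe set each, and 4 were tested. Their summed signal was 170 to 209 in mutant spermathecae, 214 to 253 in wild-type spermathecae, 195 to 290 in the mutant lower tract and 185 to 186 in the wild-type lower tract. One of the 4, alphaTry, a trypsin of the midgut, read 2.77 and 4.92 in mutant spermathecae against 20.8 and 27.4 in wild type. It met the filter only through wild-type spermathecae, where it was higher, so its test is not read. The 6 probe sets of male accessory gland markers summed to 53.5 to 71.2 in mutant spermathecae, 48.5 to 80.9 in wild-type spermathecae, 130 to 132 in the mutant lower tract and 86.8 to 91.5 in the wild-type lower tract.

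**Figure D4:**
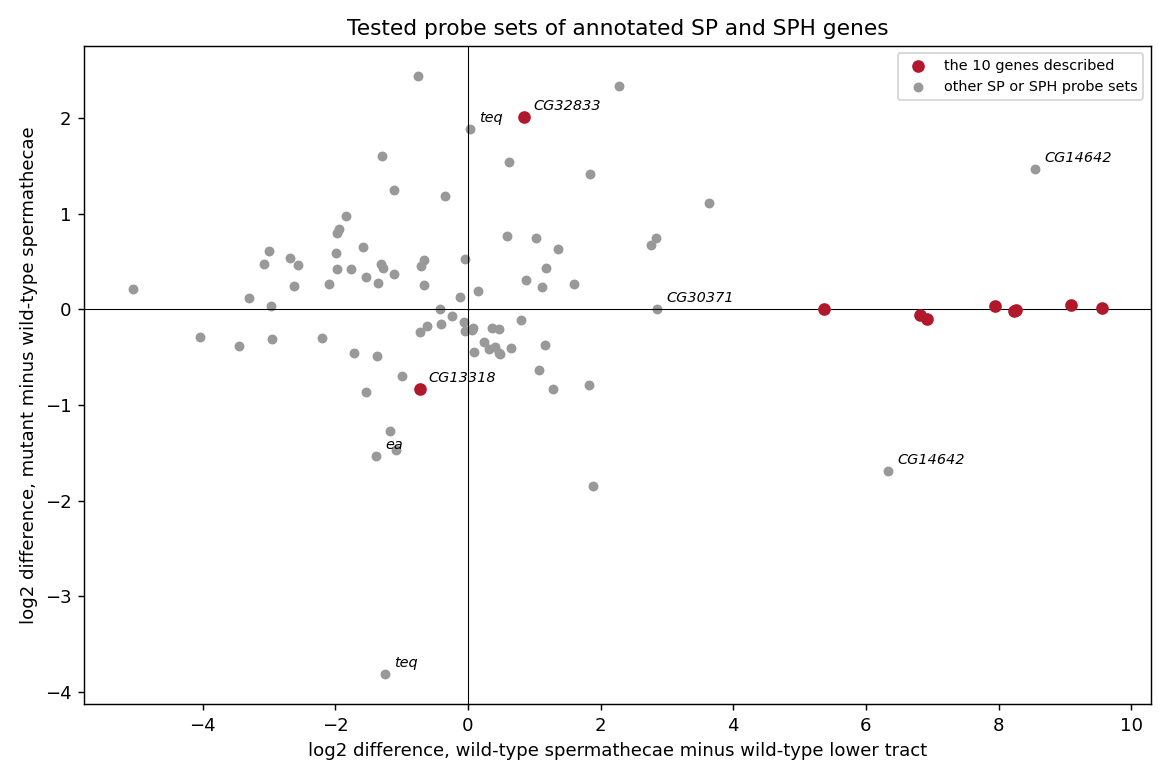
Log2 differences of the tested probe sets of annotated SP and SPH genes, with wild-type spermathecae minus wild-type lower tract on the horizontal axis and mutant minus wild-type spermathecae on the vertical axis. The 10 genes described here are red and the 84 other probe sets grey. The 8 bright genes lie between 5.38 and 9.56 on the horizontal axis and near 0 on the vertical one, CG32833 lies above them to the left, and CG13318 lies below 0 on both axes.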

How the data were processed

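Per the submitters' processing notes, the deposited intensity values are MAS5 signals. They are linear, and each array had a 2% trimmed mean of 150 over its probe sets. How that scaling was set, the label chemistry and the genome build are not given in the sources used here, and detection calls were not used here. Gene names came from the array's probe annotation: 13647 of 18769 probe sets had 1 symbol, 402 had several and 4720 had none. Gene order and synonyms came from RefSeq.

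Signals were used with no further normalization as log2(signal + 4), so fold changes of low genes are understated. Control probe sets were left out. A probe set was kept where it reached the array median on both arrays of 1 group or more. One mean per group was fitted to all 8 arrays with limma 3.58.1 in R 4.3.3 (lmFit and eBayes with a variance trend), with 4 residual degrees of freedom. Each p is two-sided, and called means a Benjamini-Hochberg adjusted p under 0.05. Arrays carry no read depth, and their number limits the precision. The script was tested on simulated data.

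The 10 genes and the other lists were chosen with earlier results of these data known. The named genes are all 10, up to 4 called genes of each other list by smallest adjusted p, and the 5 probe sets most like the 10. The list of SP and SPH genes was set from RefSeq synonyms after the tables were at hand. Genome neighbours, CG43074, CG43090, CG42807, Cyp305a1 and the probe sets bright in spermathecae were chosen after their values were seen.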

Additional observations from a re-analysis of the deposited data

How the results depend on the processing

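Each result was recomputed under 18 alternatives: quantile normalization, median centring, a pseudocount of 20 or none, a stricter filter or none, no variance trend, a robust variance, a replicate block, only the arrays compared, and leaving out each of the 8 arrays. Of 889 recomputed gene values, 833 kept their direction and side of the threshold, 27 changed sign with no call under either setting, 16 lost the call and 13 gained it. None with a call changed sign. For mutant against wild-type spermathecae the count of called genes was 2. It was 1 with no filter (adjusted p of CG13318 0.0571) and 1 with no variance trend (0.0993). It was 0 to 2 over the arrays left out one at a time. For the lower tract it was 0, and 0 to 5 over the arrays left out. For spermathecae against the lower tract it was 9 in wild type (8 to 10 over the arrays left out), and in the mutant 10 (9 to 10), but 6 with a robust variance. For the interaction it was 0, and 1 under quantile normalization, a pseudocount of 20 or a robust variance, each time CG32833, and 0 to 1 over the arrays left out. The cause of these changes was not tested. Median centring raised the differences of the 8 bright genes between organs by 0.17 in wild type and 0.16 in the mutant. The pseudocount set the size of the largest organ differences: in wild type the 8 bright genes reached 10.2 without one and 8.57 with 20. Taken over all 10113 tested probe sets, same-numbered arrays did not deviate together (r of deviations from group means -0.03 to 0.03). A value over so many probe sets cannot exclude a pairing that acts on few genes. The 8 bright genes were higher on replicate 1 of the lower tract in both genotypes. With the replicate block the counts were 2, 0, 9, 10 and 0, the same as without it. CG32833 had no value in the fit of the lower tract alone, where it did not reach the filter. It met the filter only through the spermathecae, so its part in the counts between organs and for the interaction is not read.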

Other observations

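Some family members outside the 10 genes moved with genotype. CG14642 (SP29) had 2 probe sets with opposite results. One read 9107 and 8858 in mutant spermathecae, against 3814 and 2761 in wild-type spermathecae, and rose by 1.47 on the log2 scale (adjusted p = 0.0252 by limma). The other read 691 and 592 in mutant spermathecae, against 2213 and 1942 in wild-type spermathecae, and fell by 1.69 (adjusted p = 0.000472 by limma). The cause of the opposite results was not tested. In wild type the log2 differences between spermathecae and lower tract were 8.56 and 6.34, above that of Send1 (5.38). A strong spermatheca bias was thus not particular to the 8 bright genes. In the lower tract the first probe set read 105 and 45.2 in the mutant, against 6.18 and 3.31 in wild type. It rose there by 3.08 (adjusted p = 0.000528 by limma).

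CG30371 (SP80a) was also above 10000 on every spermatheca array, at 13520 and 15949 in the mutant and 16816 and 12813 in wild type. In the lower tract it read 171 and 84.6 in the mutant, against 1976 and 2076 in wild type. It fell by 4.03 on the log2 scale in the mutant lower tract (SE 0.28, adjusted p = 3.35e-05 by limma). CG30375 (SP80b) read 489 and 529 in mutant spermathecae, against 85.0 and 112 in wild-type spermathecae, and rose by 2.34 (SE 0.49, adjusted p = 0.0168 by limma).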
